A study of Homo sapiens with 24 samples.

Results

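Endogenous retroviruses are copies of retroviral genomes that entered the germ line long ago, and the 79 families described here are the internal, protein-coding parts of such elements. They were taken from the 96 h repeat table of 2 acute myeloid leukaemia lines, which holds 1180 rows, as every row whose name ends in -int, apart from names that begin with HERV9, HERVH-, HERVH48, HERVK-, HERV-Fc, MLT, MST, THE1, ERVL or HERVL. The rule uses names alone and no measured value, and it leaves out 62 other internal rows. By their family names 60 of the 79 are class I elements, 9 are class II, 9 are class III and 1, MamGyp-int, derives from a Gypsy-type retrotransposon; the table itself has no class column.

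The groups are ELF-153 cells given decitabine (DAC), untreated ELF-153 cells, UCSD-AML1 cells given DAC and untreated UCSD-AML1 cells, each with 3 libraries of ribosome-depleted, strand-specific total RNA harvested at 96 h. DAC was present at 100 nM and renewed each day on 4 days, and all 4 groups grew in medium with GM-CSF. Each line is 1 established cell line and the 3 libraries of a group are called technical triplicates, so a p-value here speaks of library-to-library spread and not of independent experiments. DAC is a cytidine analogue that is built into DNA and traps DNA methyltransferases, so that dividing cells lose methylation. The design asks how DAC alters the transcripts of each line and whether the lines differ.

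A complete element carries gag, pol and env genes between a pair of long terminal repeats (LTRs), of which the upstream one holds the promoter. Most copies in the human genome have lost the internal part by recombination between their LTRs and persist as a lone LTR. In somatic cells these elements are held silent by DNA methylation and by histone methylation placed through KRAB zinc finger proteins and SETDB1, and a rise of their transcripts is a known response of tumour cells to DNA methyltransferase inhibitors. The letter after HERV often names the amino acid of the transfer RNA that would prime reverse transcription, such as E for glutamate, I for isoleucine, P for proline, W for tryptophan and K for lysine. Class I elements resemble gammaretroviruses, class II resemble betaretroviruses, and class III resemble spumaviruses and are the oldest. Values are scaled reads, meaning the reads of a whole family divided by the library's gene-table size factor. A family sums many genomic copies, whose number and length are not in the table, so levels are compared between groups and never between families.

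The libraries held 1.91 to 3.55 M repeat reads and 13.1 to 28.3 M gene reads (M, mega). The row of 7SK, a small nuclear RNA, took 45.9% to 60.7% of repeat reads in ELF-153 and 20.3% to 33.9% in UCSD-AML1, and it was left out. A pair of ELF-153 libraries stood apart, DAC replicate 2 and untreated replicate 1, whose repeat-table and gene-table scalings differed by 0.65 and −0.69 on the log2 scale. The mitochondrial ribosomal RNA share of gene reads moved with DAC, at 37.3% to 49.8% in DAC-treated and 13.1% to 35.0% in untreated ELF-153, and at 61.7% to 63.8% in DAC-treated and 49.3% to 51.3% in untreated UCSD-AML1; its part in the results was not tested. Of 10 haematopoietic marker genes, 8 in ELF-153 and 9 in UCSD-AML1 reached 10 in every library. MPO lay near 0 in both lines and MECOM in ELF-153. The 10 genes summed to 4331 to 5060 in DAC-treated and 3822 to 4319 in untreated ELF-153. In UCSD-AML1 they summed to 4952 to 5433 with DAC and 8250 to 8775 untreated. With DAC, PTPRC rose (log2 change 0.70) and CD34 (−0.85) and CD33 (−1.15) fell in ELF-153 (limma, adjusted p under 0.05). In UCSD-AML1 RUNX1 rose (1.33), and KIT (−2.32), MECOM (−1.12) and CD33 (−1.06) fell. The part of these changes in the results was not tested. Of 13 markers of fibroblasts, epithelium, hepatocytes and lymphocytes, 10 stayed under 10 everywhere, and the exceptions were CD3D, COL1A1 and COL3A1. COL3A1 averaged 37.8 in DAC-treated and 2.42 in untreated ELF-153 (adjusted p = 0.000129, limma), and was at 0 in UCSD-AML1. CD3D averaged 195 in DAC-treated and 139.7 in untreated ELF-153 (adjusted p = 0.575), and 10.7 in DAC-treated and 2.36 in untreated UCSD-AML1 (adjusted p = 0.0141). COL1A1, too low for the test, averaged 5.58 in DAC-treated and 0.683 in untreated ELF-153, and 29.3 in DAC-treated and 2.75 in untreated UCSD-AML1. The 13 markers summed to 239.8 to 254 in DAC-treated and 136 to 149 in untreated ELF-153, and to 15.7 to 55.1 in DAC-treated and 3.94 to 9.44 in untreated UCSD-AML1, and their part in the results was not tested.

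With DAC the internal sequences rose more often than they fell in both lines. Of the 76 families with enough reads to be tested, 27 rose and 1 fell in ELF-153, and 38 rose and 2 fell in UCSD-AML1 (limma on log2 of scaled reads plus 1, Benjamini-Hochberg adjusted p under 0.05 over all 1063 families tested). That is 35.5% rising and 1.32% falling in ELF-153, against 20.1% and 0.753% of all families there, and 50% rising and 2.63% falling in UCSD-AML1, against 33.6% and 2.07% of all families. In bulk RNA a change in the share of cells that transcribe a family and a change in the amount per cell cannot be told apart. The median log2 change of the internal sequences was 0.71 in ELF-153 and 0.73 in UCSD-AML1, against 0.55 and 0.43 for all families in the same lines. All 3 DAC libraries lay above all 3 untreated libraries for 35 internal sequences in ELF-153 and for 49 in UCSD-AML1. No such count is given for all families, whose medians also lay above 0, so these counts do not set the internal sequences apart. The remaining 3 members, HERVK11D-int, HERVKC4-int and LTR23-int, held too few reads to be tested.

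**Figure D1:**
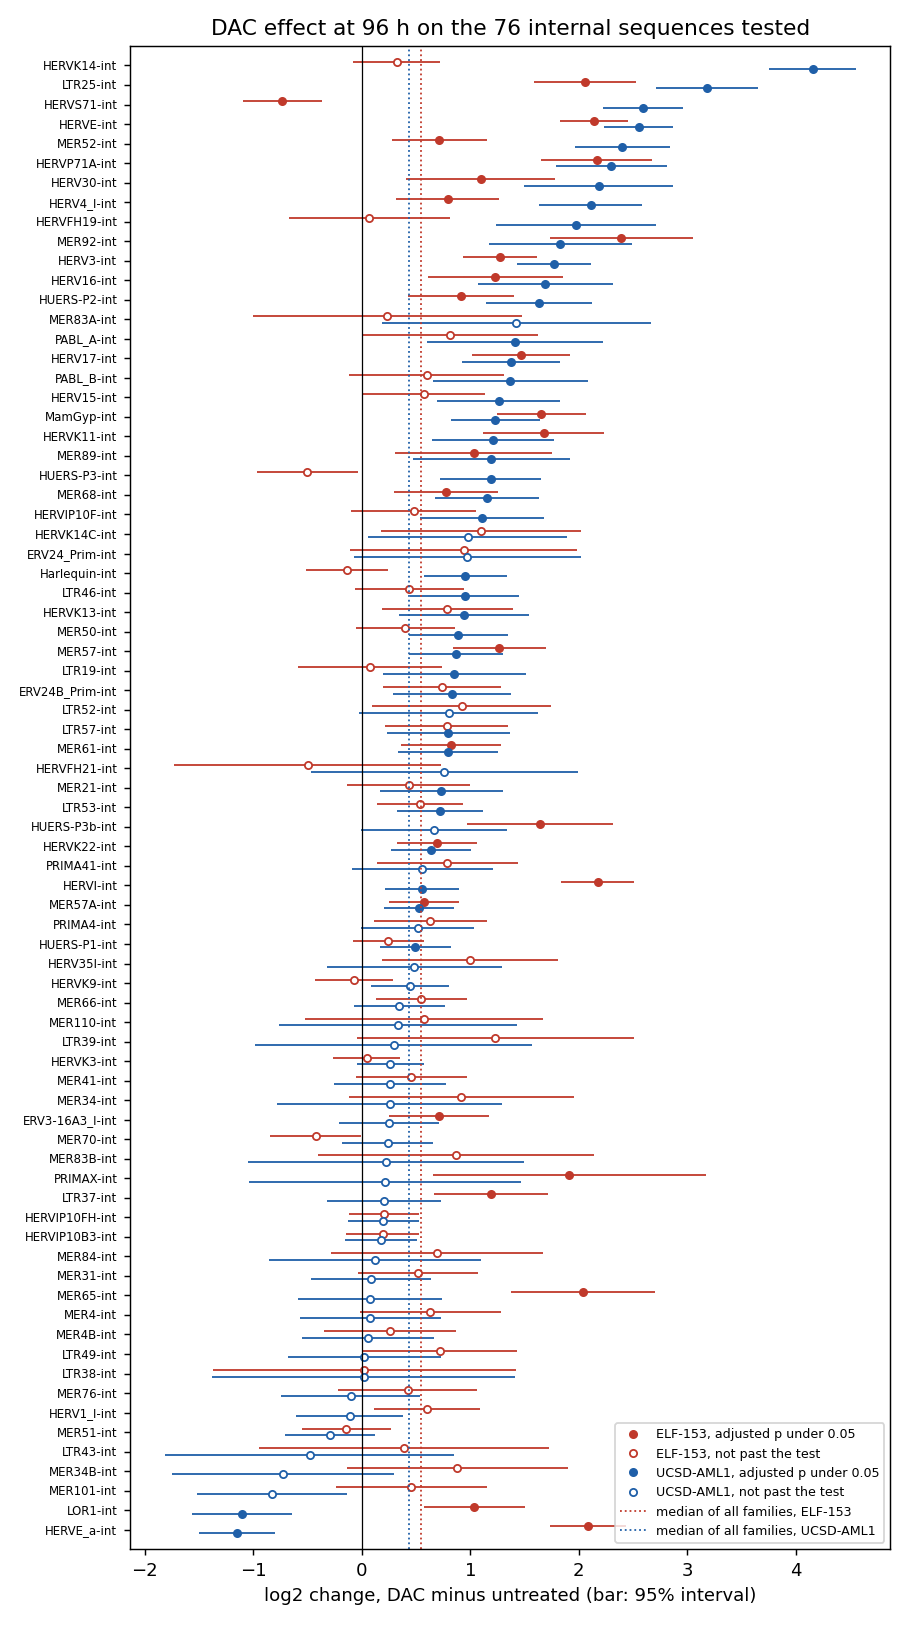
The log2 change with DAC (DAC minus untreated, x axis) is drawn for each of the 76 tested internal sequences (y axis, ordered by the change in UCSD-AML1), with the 95% interval as a bar, ELF-153 in red above UCSD-AML1 in blue; filled points passed the test and dotted lines are the medians of all families. Most points lie right of 0 in both lines, with 27 filled red and 38 filled blue points on that side.

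The summed reads of the 79 families show the same in bulk. ELF-153 held 26730.4, 33192 and 28602 scaled reads of them in the 3 DAC libraries, against 15605, 23154 and 19380.3 in the untreated libraries. UCSD-AML1 held 52376, 47111 and 49423 with DAC, against 27719.9, 27872 and 28002 untreated. DAC and untreated libraries did not overlap in either line. As a share of repeat reads without 7SK the families took 1.98% to 2.17% in DAC-treated and 1.38% to 1.75% in untreated ELF-153, and 2.41% to 2.62% in DAC-treated and 1.75% to 1.86% in untreated UCSD-AML1. HERVE-int made up 20.7% of the summed difference in ELF-153 and 15.3% in UCSD-AML1, where families that fell are subtracted from the sum. MamGyp-int made up 13.1% and 2.23%, and LTR25-int 6.09% and 16.2%, in the same order of lines.

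The reference used for scaling sets how much of this rise is seen. Size factors taken from the repeat table in place of the gene table put the median DAC change of the internal sequences at 0.18 in ELF-153 and 0.29 in UCSD-AML1. The median of all families was then 0.00 in ELF-153 and 0.01 in UCSD-AML1, which takes away the 0.55 and 0.43 seen with gene-table scaling. Calls among the internal sequences were then 16 higher and 6 lower in ELF-153, and 28 higher and 5 lower in UCSD-AML1, so the higher share of calls was 72.7% in place of 96.4% and 84.8% in place of 95%. Over all families the calls were then 92 higher and 71 lower in ELF-153, and 187 higher and 199 lower in UCSD-AML1, so that 56.4% in place of 96.4% and 48.4% in place of 94.2% were higher. Rises thus made up 21.1% of the internal sequences and 8.65% of all families in ELF-153, and 36.8% and 17.6% in UCSD-AML1; falls made up 7.89% and 6.68% in ELF-153, and 6.58% and 18.7% in UCSD-AML1. All 16 and all 28 of these rises were among the 27 and the 38. Fitting the 6 ELF-153 libraries alone gave 13 rises and 0 falls. In that fit 18.1% of the internal sequences and 5.68% of all families rose. Leaving out both libraries that stood apart gave 17 rises and 3 falls in ELF-153. Without ELF-153 untreated replicate 2 there were 47 rises, and without untreated replicate 1 there were 3 falls. No counts over all families are given for the fits that left out libraries, so those counts do not set the internal sequences apart.

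**Figure D2:**
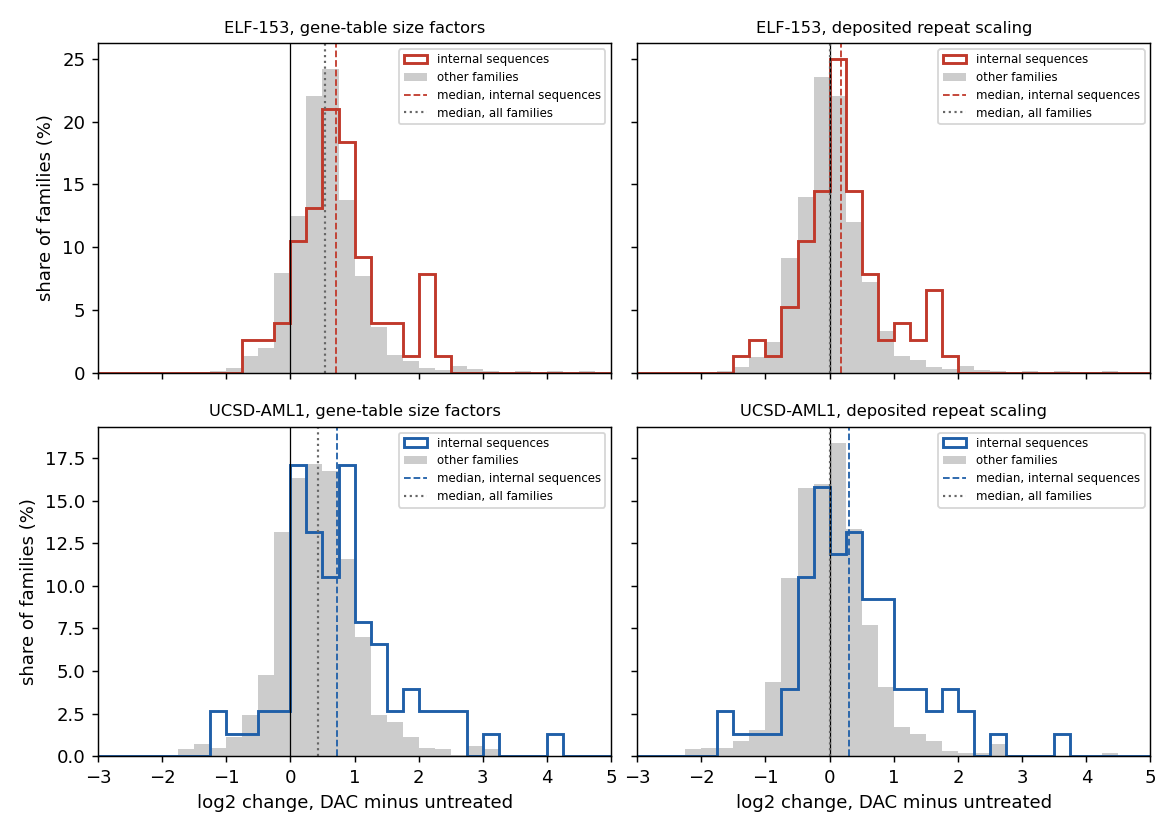
Histograms of the log2 change with DAC (x axis) as a share of families in percent (y axis), for internal sequences (outline) and other families (grey), in ELF-153 (top) and UCSD-AML1 (bottom), with gene-table size factors (left) and the deposited repeat scaling (right); dashed and dotted lines mark the medians of the internal sequences and of all families. The grey distributions centre on 0 under the deposited scaling, and the outlines keep a tail to the right in both.

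Both lines shared 20 rising families, which is 74.1% of the ELF-153 rises and 52.6% of the UCSD-AML1 rises. Over all 1063 families 126 rises were shared, 58.9% of the 214 in ELF-153 and 35.3% of the 357 in UCSD-AML1. The shared internal sequences are HERV16, HERV17, HERV3, HERV30, HERV4_I, HERVE, HERVI, HERVK11, HERVK22, HERVP71A, HUERS-P2, LTR25, MER52, MER57, MER57A, MER61, MER68, MER89, MER92 and MamGyp, each with the ending -int. A further 5 passed the test upwards in ELF-153 and neither way in UCSD-AML1, and 17 did so in UCSD-AML1 and not in ELF-153; the difference between lines is tested separately. Over all families these counts were 84 and 229. Past neither test were 31 internal sequences, 40.8%, against 597 or 56.2% of all families. Differences between these shares were not tested. All these counts and the list of shared families use gene-table scaling. With the deposited repeat scaling, 16 of the 27 ELF-153 rises and 28 of the 38 UCSD-AML1 rises kept their call. HERV30-int, HERV4_I-int, HUERS-P2-int and MER52-int were among those that lost it in ELF-153. HERVI-int was among those that lost it in UCSD-AML1, and HERVK22-int lost it in both lines. The change of MER57A-int was then 0.02 in ELF-153 and 0.09 in UCSD-AML1. The families named here are not a full list of the lost calls.

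HERVE-int, the body of a class I element with LTR2 ends, made up the largest part of the summed rise in ELF-153 and the second largest in UCSD-AML1. DAC-treated ELF-153 libraries held 2793, 2589 and 2760.03 scaled reads of it, and untreated ELF-153 libraries 589, 680.2 and 581. DAC-treated UCSD-AML1 held 4108, 4195 and 3736, against 669, 680.1 and 702 untreated. Every DAC library lay far above every untreated one. The log2 change was 2.14 ± 0.15 (adjusted p = 5.02e-07) in ELF-153 and 2.55 ± 0.15 (adjusted p = 5.9e-08) in UCSD-AML1. Here and in what follows ± is the standard error of the fit, with 3 libraries a group. The fit takes 1 spread per family from all 12 libraries, so both lines carry the same standard error. It is not the spread of either line alone. Untreated HERV4_I-int, for example, had an SD of 46.4 scaled reads in ELF-153 and 1.72 in UCSD-AML1.

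LTR25-int, another class I element, rose in both lines to unequal levels. ELF-153 held 780.4, 874 and 814 scaled reads with DAC and 140.02, 289 and 188 without it. UCSD-AML1 held 3773, 4105 and 4025 with DAC and 427, 462 and 421 without. The groups did not overlap. Changes were 2.06 ± 0.22 (adjusted p = 2.42e-05) in ELF-153 and 3.18 ± 0.22 (adjusted p = 3.65e-07) in UCSD-AML1, and their difference of −1.12 missed the threshold (adjusted p = 0.0613, 95% interval −1.79 to −0.45).

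HERVP71A-int, from an element with LTR71 ends, rose in both lines. It had 264, 318 and 284 scaled reads in DAC-treated ELF-153 against 52.6, 86.05 and 56.5 in untreated ELF-153, a change of 2.16 ± 0.24 (adjusted p = 2.98e-05). It had 259.7, 244 and 223 in DAC-treated UCSD-AML1 against 35.7, 51.3 and 61.5 in untreated UCSD-AML1, a change of 2.300 ± 0.24 (adjusted p = 1.39e-05). No DAC library overlapped an untreated one, and the effects differed by −0.14 (95% interval −0.86 to 0.59). MER92-int had the greatest rise among the internal sequences in ELF-153, at 113, 223 and 149 with DAC against 24.6, 37.9 and 25.5 untreated (log2 change 2.39 ± 0.30, adjusted p = 0.00013). In UCSD-AML1 it had 243, 152 and 293 with DAC against 67.1, 50.4 and 68.6 untreated (log2 change 1.83 ± 0.30, adjusted p = 0.0008).

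HERV17-int is the body of the HERV-W family, one copy of which encodes the placental fusion protein syncytin-1. Its scaled reads were 789, 838 and 748 in DAC-treated ELF-153 and 208, 369 and 304 in untreated ELF-153. They were 676, 534 and 524 in DAC-treated UCSD-AML1 and 189.8, 230.1 and 246 in untreated UCSD-AML1. The 2 treatments did not overlap in either line, with changes of 1.46 ± 0.21 (adjusted p = 0.000336) in ELF-153 and 1.37 ± 0.21 (adjusted p = 0.000395) in UCSD-AML1. HERV3-int, the body of the HERV-R family, had 1197, 1138 and 1172 in DAC-treated ELF-153 against 457, 539 and 459 in untreated ELF-153. UCSD-AML1 had 878, 707 and 638 of it with DAC against 224, 214 and 207 untreated. It rose in ELF-153 by 1.27 ± 0.16 (adjusted p = 8.63e-05) and in UCSD-AML1 by 1.77 ± 0.16 (adjusted p = 3.12e-06), and all 6 DAC libraries exceeded all 6 untreated ones.

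**Figure D3:**
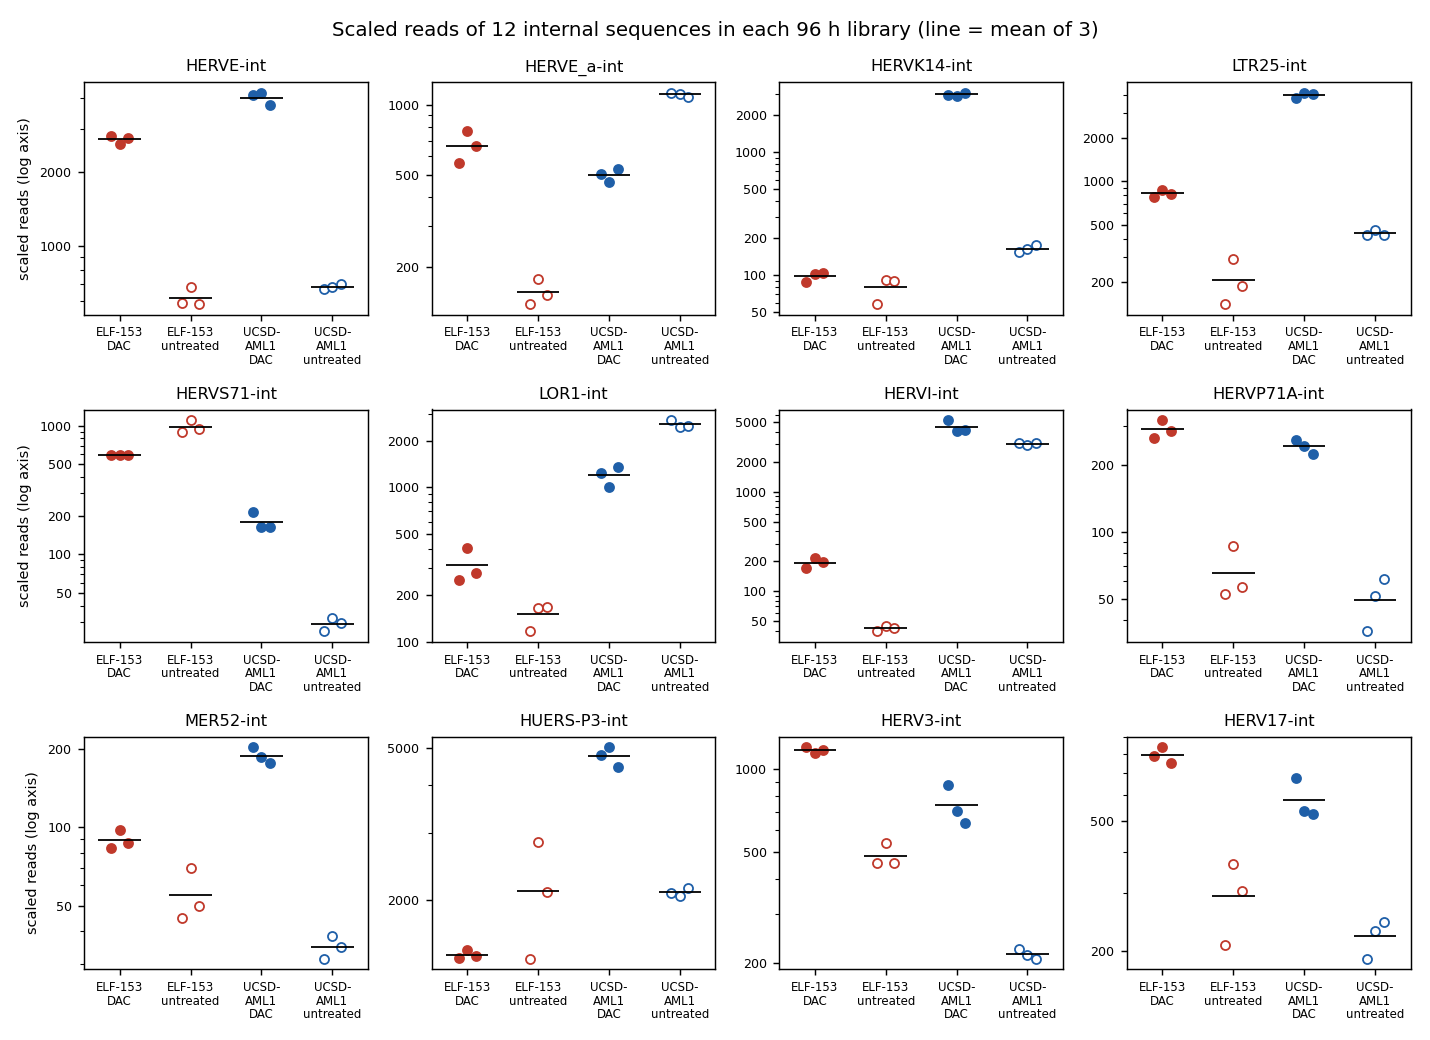
Scaled reads (y axis, log scale, a separate range in each panel) of 12 internal sequences in each 96 h library; filled points are DAC-treated and open points untreated, ELF-153 in red and UCSD-AML1 in blue, and the line is the mean of 3 libraries. HERVE-int rises in both lines, HERVK14-int stands high in the DAC-treated UCSD-AML1 libraries alone, and HERVS71-int moves in opposite directions.

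Class II elements, the HERVK families that the rule keeps, had 7 tested members, of which 2 rose in ELF-153 and 4 rose in UCSD-AML1. HERVK14-int had the largest rise of the 76 in UCSD-AML1. It held 2934, 2879.7 and 3036 scaled reads in DAC-treated UCSD-AML1, against 154, 165 and 176 in untreated UCSD-AML1, a 17.8-fold difference (log2 change 4.15 ± 0.18, adjusted p = 1.34e-08). In ELF-153 it held 88.1, 103 and 104 with DAC and 58.2, 91.2 and 90.2 untreated. The 2 ELF-153 groups overlapped, and the change there of 0.32 missed the threshold (adjusted p = 0.176) and was −0.22 under the deposited repeat scaling. HERVK11-int rose in both lines, by 1.68 ± 0.26 (adjusted p = 0.000662) in ELF-153 and 1.21 ± 0.26 (adjusted p = 0.00329) in UCSD-AML1.

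Class III elements had 9 tested members, of which 3 rose in ELF-153 and 5 in UCSD-AML1, with medians of 0.71 and 0.73. HERV16-int held 744, 1260.2 and 846 scaled reads in DAC-treated ELF-153 against 249, 593 and 416 in untreated ELF-153 (log2 change 1.23 ± 0.29, adjusted p = 0.0111). In UCSD-AML1 it held 477, 393 and 481 with DAC against 118, 143 and 155 untreated (log2 change 1.69 ± 0.29, adjusted p = 0.000878). Its ELF-153 call was lost when the 6 ELF-153 libraries were fitted alone. MamGyp-int, the Gypsy-type member, held 1998, 1691 and 2142 in DAC-treated ELF-153 against 589, 696 and 566 in untreated ELF-153. UCSD-AML1 had 1041, 818 and 648 of it with DAC against 359.7, 358 and 329.5 untreated. It rose by 1.65 ± 0.19 (adjusted p = 4e-05) in ELF-153 and by 1.23 ± 0.19 (adjusted p = 0.000408) in UCSD-AML1, with no overlap in either line. The 59 tested class I members had 21 rises and 1 fall in ELF-153 and 28 rises and 2 falls in UCSD-AML1. In ELF-153 the rising shares of class I, II and III members were 35.6%, 28.6% and 33.3%, against 20.1% of all families. In UCSD-AML1 they were 47.5%, 57.1% and 55.6%, against 33.6%. Differences between the classes were not tested.

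By name, the members called HERV or HUERS rose in 13 of 29 cases in ELF-153 and in 19 of 29 in UCSD-AML1, with 1 fall in each line. Those called MER rose in 8 of 25 and 9 of 25 cases, those called LTR in 2 of 11 and 5 of 11, and the other 11 in 4 and 5 cases, in ELF-153 and in UCSD-AML1. For comparison, the internal rows that the rule leaves out rose in 20 of 55 cases in ELF-153 and 23 of 55 in UCSD-AML1. LTR rows rose in 112 of 421 and 202 of 421 cases, and LINEs in 22 of 162 and 19 of 162, in the same order of lines. SINEs rose in 1 of 57 and 37 of 57 cases, and DNA transposons not named MER in 10 of 123 and 7 of 123. DNA transposons named MER were in none of these lists. These counts use gene-table scaling, and differences between the lists were not tested.

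The DAC effect differed between lines for 11 of the 76 internal sequences, 4 with a more positive and 7 with a more negative change in ELF-153 (interaction term of the same limma fit). These are 5.26% and 9.21% of the internal sequences, against 1.41% and 3.39% of all families. With the deposited repeat scaling there were 8 more positive and 13 more negative ones, which are 10.5% and 17.1% of the internal sequences, against 11.3% and 9.22% of all families, so the more positive share was then no higher than that of all families. Leaving out 1 library at a time gave 4 to 8 more negative ones, and 4 in 7 of the 12 fits: without ELF-153 DAC replicate 1 or 3, ELF-153 untreated replicate 3, UCSD-AML1 DAC replicate 1 or any untreated UCSD-AML1 library. HERVS71-int, body of a class I element with LTR6 ends, moved in opposite directions. ELF-153 held 587, 593 and 588 scaled reads with DAC and 891, 1107 and 951 untreated, while UCSD-AML1 held 213, 162 and 162 with DAC and 25.2, 32.1 and 29.2 untreated. It was the one internal sequence that fell in ELF-153 (log2 change −0.73 ± 0.17, adjusted p = 0.0108), and it rose in UCSD-AML1 (log2 change 2.59 ± 0.17, adjusted p = 1.76e-07), a difference of −3.32 ± 0.24 (adjusted p = 1.72e-06). Fitted on the 6 ELF-153 libraries alone the fall had an adjusted p of 0.0914.

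HERVE_a-int and LOR1-int showed the reverse order, and they were the 2 internal sequences that fell in UCSD-AML1. HERVE_a-int, a variant of the HERVE body, had 563, 767 and 663 scaled reads in DAC-treated ELF-153 against 138, 177 and 151 in untreated ELF-153 (log2 change 2.09 ± 0.16, adjusted p = 1.33e-06). It had 503, 463 and 530.3 in DAC-treated UCSD-AML1 against 1126, 1119 and 1082 in untreated UCSD-AML1 (log2 change −1.15 ± 0.16, adjusted p = 0.000214). The untreated UCSD-AML1 libraries were thus the highest of the 12, and the difference of the effects was 3.24 ± 0.23 (adjusted p = 1.72e-06). HERVE-int, which shares the name, rose in both lines, and reads of related copies may be divided between the 2 rows. LOR1-int had 250.05, 405 and 279.8 in DAC-treated ELF-153 against 116, 165 and 169 in untreated ELF-153 (log2 change 1.04 ± 0.21, adjusted p = 0.00552). In UCSD-AML1 it had 1236, 1001 and 1352 with DAC against 2728, 2449.9 and 2490.3 untreated (log2 change −1.104 ± 0.21, adjusted p = 0.00187), and the difference was 2.14 ± 0.30 (adjusted p = 0.00113). The LOR1-int rise was not called in the fit of the 6 ELF-153 libraries.

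HERVK14-int had the largest line difference, at −3.83 ± 0.26 (adjusted p = 1.72e-06). HERVI-int, an isoleucine-type class I body with LTR10 ends, held 170.5, 213 and 198 scaled reads in DAC-treated ELF-153 against 39.2, 44.05 and 42.8 in untreated ELF-153 (log2 change 2.17 ± 0.16, adjusted p = 8.4e-07). UCSD-AML1 held 5277, 4082 and 4192 with DAC, against 3092, 2986 and 3103 untreated (log2 change 0.55 ± 0.16, adjusted p = 0.0159). The small UCSD-AML1 rise was lost under each scaling by repeat reads and without UCSD-AML1 DAC replicate 1 (log2 change 0.43), untreated replicate 1 (0.56) or untreated replicate 2 (0.53). The difference of effects was 1.62 ± 0.22 (adjusted p = 0.000887). MER65-int had 137, 329.7 and 204 in DAC-treated ELF-153 against 41.4, 67.6 and 45.6 in untreated ELF-153 (log2 change 2.04 ± 0.31, adjusted p = 0.000572). In UCSD-AML1 it had 149.5, 136 and 224 with DAC against 149.95, 162 and 159 untreated, where the groups overlapped (log2 change 0.08 ± 0.31, adjusted p = 0.885). Its difference of 1.96 ± 0.43 (adjusted p = 0.0244) lost its call in 7 of the 12 fits that left out a library (1.63 to 2.26) and held without ELF-153 DAC replicate 1 or 2, untreated replicate 1 or 2, or UCSD-AML1 DAC replicate 3.

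MER52-int and HERV4_I-int rose in both lines and by more in UCSD-AML1. MER52-int had 83.3, 97.7 and 87.1 scaled reads in DAC-treated ELF-153 against 44.8, 69.7 and 50.1 in untreated ELF-153 (log2 change 0.72 ± 0.20, adjusted p = 0.0272), and 203, 185 and 176 in DAC-treated UCSD-AML1 against 31.5, 38.5 and 34.7 in untreated UCSD-AML1 (log2 change 2.399 ± 0.20, adjusted p = 2e-06). HERV4_I-int had 193, 268 and 258 in DAC-treated ELF-153 against 99.7, 192 and 134 in untreated ELF-153 (log2 change 0.79 ± 0.22, adjusted p = 0.0258), and 536, 559 and 518 in DAC-treated UCSD-AML1 against 124, 122 and 125 in untreated UCSD-AML1 (log2 change 2.11 ± 0.22, adjusted p = 1.5e-05). The differences were −1.68 ± 0.29 (adjusted p = 0.00445) and −1.32 ± 0.31 (adjusted p = 0.0305). Both ELF-153 calls were lost without ELF-153 DAC replicate 2 or 3, or untreated replicate 1 or 3, where the changes were 0.59 to 0.73 for MER52-int and 0.56 to 0.78 for HERV4_I-int, and under each scaling by repeat reads (0.18 and 0.25 with the deposited one), as in the fit of the 6 ELF-153 libraries. The difference for HERV4_I-int lost its call in 8 of the 12 fits that left out a library (−1.55 to −1.08) and held without ELF-153 DAC replicate 2, untreated replicate 1 or 2, or UCSD-AML1 DAC replicate 3.

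HUERS-P3-int, a proline-type class I body with LTR9 ends, behaved unlike in the 2 lines. ELF-153 had 1402, 1469.5 and 1424 scaled reads with DAC and 1399, 2841 and 2094 untreated, and the DAC libraries lay near the lowest untreated one (log2 change −0.501 ± 0.21, adjusted p = 0.0973). UCSD-AML1 had 4809, 5028 and 4473 with DAC and 2079, 2044 and 2150.5 untreated, without overlap (log2 change 1.19 ± 0.21, adjusted p = 0.00119). The effects differed by −1.69 ± 0.30 (adjusted p = 0.00669). In ELF-153 the value became a called fall under each scaling by repeat reads (−1.05 with the deposited one), and without untreated replicate 1 (−0.77). Harlequin-int, a composite class I body, had scaled reads of 1629 ± 255 with DAC and 1786 ± 239.6 untreated in ELF-153 (mean ± SD, n = 3), and of 2852 ± 381 with DAC and 1463 ± 28.6 untreated in UCSD-AML1. It rose in UCSD-AML1 (log2 change 0.96 ± 0.18, adjusted p = 0.00133), had −0.14 in ELF-153 (adjusted p = 0.531; a called −0.68 under the deposited scaling), and had a line difference of −1.09 ± 0.25 (adjusted p = 0.0257). That call was lost in 7 of the 12 fits that left out a library (−1.21 to −0.98) and held without ELF-153 DAC replicate 2, untreated replicate 1 or 2, or UCSD-AML1 DAC replicate 2 or 3.

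HERVFH19-int, a low-count class I family, had 15.2, 25.3 and 11.7 scaled reads in DAC-treated ELF-153 against 11.2, 23.6 and 14.6 in untreated ELF-153, with overlap (log2 change 0.07 ± 0.34, adjusted p = 0.872). UCSD-AML1 had 93.4, 68.6 and 77.7 with DAC against 23.1, 19.2 and 16.6 untreated, a rise (log2 change 1.97 ± 0.34, adjusted p = 0.000946). The difference of −1.901 ± 0.48 (adjusted p = 0.0415) was lost in 10 of the 12 fits that left out a library (−2.19 to −1.62) and held without ELF-153 DAC replicate 2 or untreated replicate 1. Leaving out each library in turn kept the calls of HERVE_a-int, LOR1-int, HERVI-int, HERVK14-int, HERVS71-int, MER52-int and HUERS-P3-int for the line difference in all 12 fits.

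**Figure D4:**
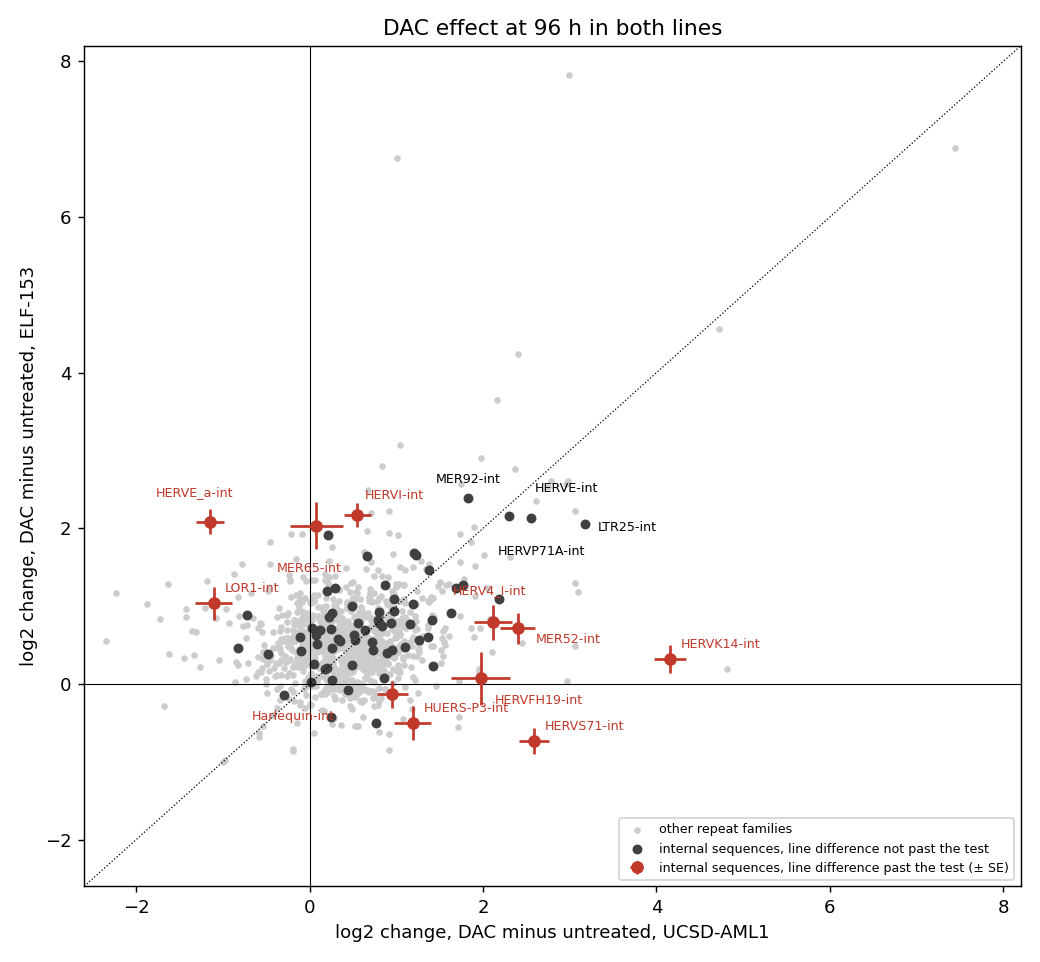
The log2 change with DAC in ELF-153 (y axis) against that in UCSD-AML1 (x axis) for internal sequences and for the other families tested (grey); red points with standard error bars are the 11 internal sequences whose change differed between the lines, and the dotted diagonal marks equal change. HERVK14-int and HERVS71-int lie far to the right below the diagonal, and HERVE_a-int and LOR1-int lie left of 0.

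Of the families chosen for their known roles, 3 passed the test in neither line. MER41-int, a class I (gammaretrovirus-like) body, had 757 ± 120.2 scaled reads in DAC-treated and 572 ± 198 in untreated ELF-153, and 675 ± 64.2 in DAC-treated and 562 ± 26.9 in untreated UCSD-AML1 (mean ± SD, n = 3). Its changes of 0.46 and 0.26 missed the threshold in ELF-153 and in UCSD-AML1 (adjusted p = 0.142 and 0.44). MER34-int had changes of 0.92 (95% interval −0.12 to 1.95) in ELF-153 and 0.26 (−0.78 to 1.30) in UCSD-AML1, on 41.96 ± 24.03 DAC-treated and 22.4 ± 14.2 untreated scaled reads in ELF-153. Both ELF-153 values passed the threshold without ELF-153 untreated replicate 2, at 0.68 for MER41-int and 1.38 for MER34-int. HERVIP10FH-int, an isoleucine-type body, had 256, 211 and 224 in DAC-treated and 217, 188 and 192 in untreated ELF-153 (log2 change 0.21 ± 0.15, adjusted p = 0.275). UCSD-AML1 had 325, 338 and 292 with DAC and 262, 297 and 273 untreated (log2 change 0.198 ± 0.15, adjusted p = 0.349). Except for MER34-int in ELF-153, the sign of these small changes was negative under scaling by repeat reads.

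Before any treatment the lines differed in these families, and with gene-table scaling more of them were lower than higher in ELF-153. Against untreated UCSD-AML1, 13 internal sequences (17.1%) were higher and 22 (28.9%) lower in untreated ELF-153, with a median of −0.32. Of all families 8.28% were higher and 43.4% lower, with a median of −0.54, so the internal sequences were less often lower than all families. TMM scaling of the repeat reads moved the median of all families to 0.03. It moved the calls among the internal sequences to 29 higher and 16 lower, so that 64.4% of calls in place of 37.1% were higher. Over all families TMM gave 327 higher and 302 lower, 52% of calls in place of 16%. With gene-table scaling, leaving out UCSD-AML1 untreated replicate 3 gave 8 higher. The named differences kept their direction and their call under every scaling tried. HERVI-int had the largest deficit, with 39.2, 44.05 and 42.8 scaled reads in untreated ELF-153 against 3092, 2986 and 3103 in untreated UCSD-AML1 (log2 difference −6.15 ± 0.16, adjusted p = 1.24e-11). LOR1-int (log2 difference −4.100 ± 0.21, adjusted p = 4.47e-08) and HERVE_a-int (log2 difference −2.83 ± 0.16, adjusted p = 7.32e-08) were lower too. HERVS71-int was higher in untreated ELF-153 by 5.05 ± 0.17 (adjusted p = 2.06e-10). The line difference in DAC effect shares these untreated libraries, so the 2 sets of values are not independent.

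Further families were lower in untreated ELF-153. LTR37-int had 79.5, 100.4 and 108 scaled reads in untreated ELF-153 against 484, 538 and 499 in untreated UCSD-AML1 (log2 difference −2.402 ± 0.24, adjusted p = 1.69e-05). MER83B-int had 4.48, 9.22 and 17.3 against 46.1, 38.5 and 40.2 in the same order (log2 difference −2.07 ± 0.59, adjusted p = 0.0119), a call lost without ELF-153 untreated replicate 1 (−1.64). PRIMA41-int had 73.4 ± 35.3 against 236 ± 15.8 (log2 difference −1.78 ± 0.30, adjusted p = 0.000961; mean ± SD, n = 3). Higher in untreated ELF-153 were MER83A-int, at 16.8, 34.8 and 30.98 against 1.05, 8.25 and 7.09 in untreated UCSD-AML1 (log2 difference 2.35 ± 0.57, adjusted p = 0.00618), and HERV16-int (log2 difference 1.51 ± 0.29, adjusted p = 0.00199). HERV3-int (log2 difference 1.17 ± 0.16, adjusted p = 0.000169), MER50-int (log2 difference 1.07 ± 0.21, adjusted p = 0.00232) and MamGyp-int (log2 difference 0.81 ± 0.19, adjusted p = 0.00499) were higher by less. MER50-int had 162 ± 47.9 scaled reads in untreated ELF-153 and 74.4 ± 5.21 in untreated UCSD-AML1.

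The LTR rows of the same elements were counted apart from the internal rows and hold both flanking and solitary LTRs. Of 56 internal sequences with at least 1 tested LTR row, 18 rose in ELF-153 and 12 of those had an LTR row that rose, and 30 rose in UCSD-AML1, 24 of them with a rising LTR row. Among those that did not rise, 18 of 38 in ELF-153 and 14 of 26 in UCSD-AML1 had a rising LTR row. In all, 49 of the 158 LTR rows rose and 4 fell in ELF-153, and 65 rose and 4 fell in UCSD-AML1. Of all LTR rows tested 26.6% rose in ELF-153 and 48% in UCSD-AML1, and of all families 20.1% and 33.6%. Falls made up 0.753% and 2.07% of all families. With the deposited repeat scaling 15 of the 158 rose and 12 fell in ELF-153, and 37 rose and 11 fell in UCSD-AML1. Of all families 8.65% then rose and 6.68% fell in ELF-153, and 17.6% rose and 18.7% fell in UCSD-AML1. Differences between these shares were not tested. LTR14A, an end of the HERVK14 element, had 3.79, 10.5 and 12.7 scaled reads in DAC-treated ELF-153 against 4.48, 8.19 and 9.11 in untreated ELF-153 (log2 change 0.19 ± 0.38, adjusted p = 0.701). In UCSD-AML1 it had 749.5, 828 and 703 with DAC against 19.9, 32.1 and 27.6 untreated (log2 change 4.81 ± 0.38, adjusted p = 1.8e-06). It followed its internal sequence in rising in UCSD-AML1, whereas LTR14 (0.54, adjusted p = 0.142) and LTR14B (0.29, adjusted p = 0.384) missed the threshold there. With the deposited scaling LTR14A had −0.29 in ELF-153 and 4.39 in UCSD-AML1, and LTR14B had −0.14 in UCSD-AML1.

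LTR2, the end of HERVE, rose by 1.31 ± 0.17 (adjusted p = 0.000105) in ELF-153 and 1.51 ± 0.17 (adjusted p = 2.18e-05) in UCSD-AML1. Of the related rows, LTR2B had 0.33 (adjusted p = 0.149) in ELF-153 and 0.36 (adjusted p = 0.14) in UCSD-AML1, and LTR2C had 0.04 (adjusted p = 0.835) and 0.41 (adjusted p = 0.0284) in the same order of lines. LTR71A, an end of HERVP71A, rose by 2.53 ± 0.27 (adjusted p = 2.19e-05) in ELF-153 and 2.75 ± 0.27 (adjusted p = 6.95e-06) in UCSD-AML1, while LTR71B had 0.37 (adjusted p = 0.352) in ELF-153 and rose by 1.13 ± 0.32 (adjusted p = 0.0159) in UCSD-AML1. LTR4, the end of HERV3, rose by 1.498 ± 0.24 (adjusted p = 0.0009) in ELF-153 and 1.04 ± 0.24 (adjusted p = 0.00555) in UCSD-AML1. LTR17, the end of HERV17, rose by 0.62 ± 0.17 (adjusted p = 0.0226) in ELF-153 and 1.604 ± 0.17 (adjusted p = 1.45e-05) in UCSD-AML1, with a line difference of −0.99 ± 0.24 (adjusted p = 0.0337). LTR25 had 243, 199 and 218 scaled reads in DAC-treated and 221, 233 and 236 in untreated ELF-153, and 155, 203 and 147 in DAC-treated and 149.95, 140.2 and 113 in untreated UCSD-AML1. Its changes of −0.07 in ELF-153 (adjusted p = 0.779) and 0.32 in UCSD-AML1 (adjusted p = 0.194) missed the threshold, although LTR25-int rose in both lines. Beside the fall of HERVS71-int in ELF-153, its ends LTR6A and LTR6B had 0.71 ± 0.20 (adjusted p = 0.0256) and −0.06 ± 0.24 (adjusted p = 0.852) there. With the deposited repeat scaling the ELF-153 rises of LTR17 and LTR6A were no longer called, at 0.072 and 0.17, and LTR6B was a called fall of −0.600. The UCSD-AML1 value of LTR2C was −0.026 and not called. LTR2B had −0.22 in ELF-153 and −0.080 in UCSD-AML1, LTR2C −0.51 and LTR71B −0.16 in ELF-153, and LTR25 −0.61 in ELF-153 and −0.11 in UCSD-AML1, none of them called. The rises of LTR2, LTR71A and LTR4 in both lines, and of LTR17 and LTR71B in UCSD-AML1, kept their calls. Without both libraries that stood apart LTR6A had 0.41 in ELF-153 and was not called.

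**Figure D5:**
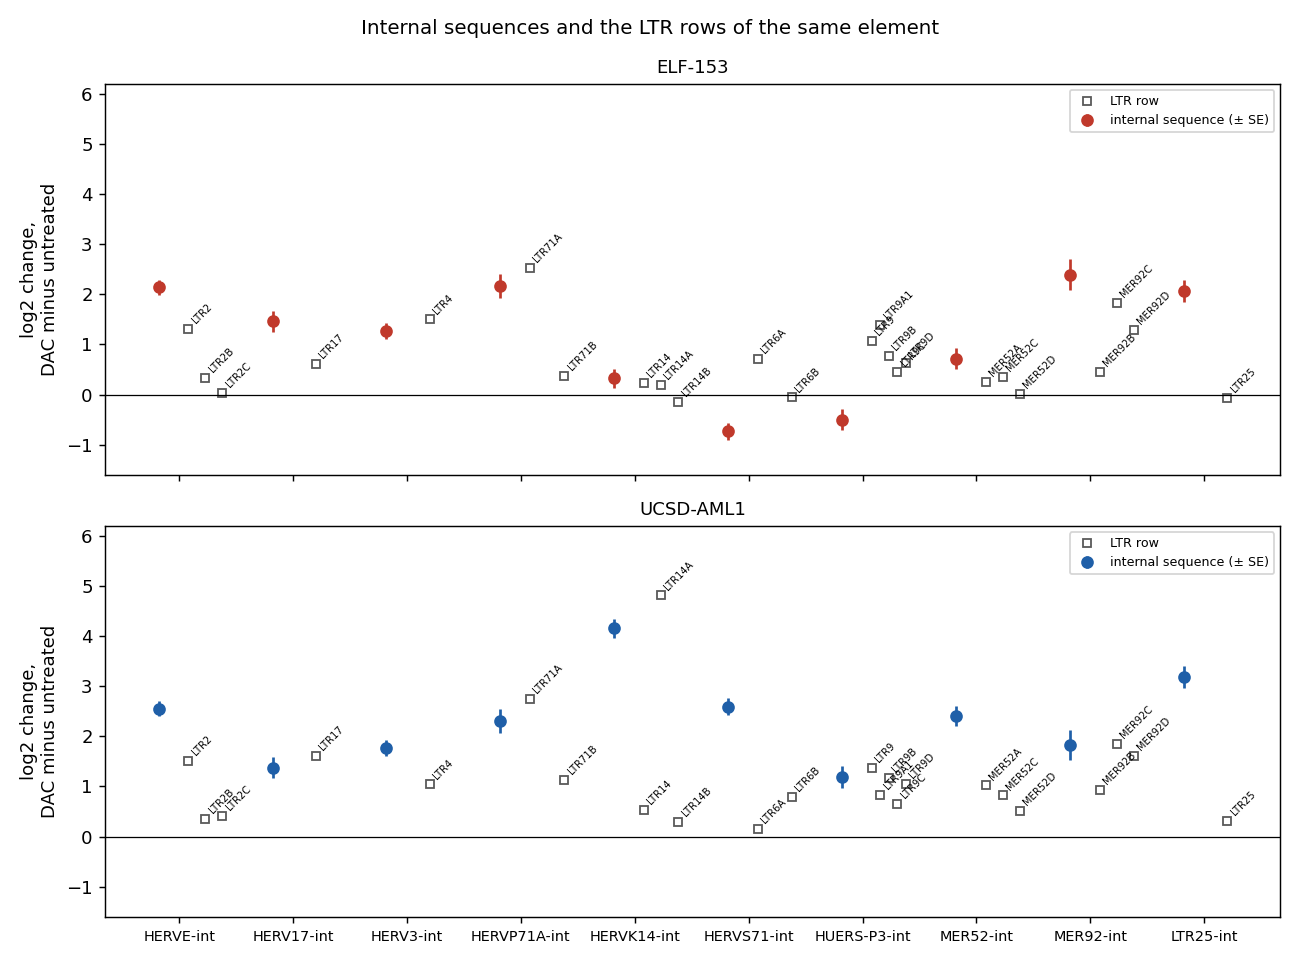
The log2 change with DAC (y axis) of 10 internal sequences (filled circles with standard errors) and of the LTR rows of the same element (open squares, named), in ELF-153 (top) and UCSD-AML1 (bottom). LTR14A lies beside HERVK14-int at the top of the UCSD-AML1 panel, and LTR25 lies near 0 under LTR25-int in both panels.

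A few single copies of these families are annotated as host genes because their envelope reading frame has been kept, and they are counted in the gene table. ERV3-1, the envelope gene of the HERV3 copy on chromosome 7 (ENSG00000213462), had 1502, 1469 and 1498 scaled reads in DAC-treated ELF-153 against 307, 446 and 410.1 in untreated ELF-153. UCSD-AML1 had 246, 243 and 225 with DAC against 2.097, 0 and 1.58 untreated, where 4 reads in all were counted. The gene was close to silent in untreated UCSD-AML1 and present in every other group. Its log2 change was 1.96 ± 0.33 (adjusted p = 0.000417) in ELF-153 and 6.901 ± 0.33 (adjusted p = 7.62e-09) in UCSD-AML1, where the size depends on the pseudocount, and the effects differed by −4.94 ± 0.46 (adjusted p = 1.23e-05) (limma over 18799 genes, of which 20.1% rose in ELF-153, 19.7% rose in UCSD-AML1 and 8.62% had a more negative change in ELF-153). The family row HERV3-int rose by 1.27 in ELF-153 and 1.77 in UCSD-AML1. In DAC-treated ELF-153 the gene averaged 1490 scaled reads and the family row 1169, so the row did not hold all reads of ERV3-1. Some of them may be part of that row, and the overlap was not tested.

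Of the RefSeq promoter windows of ERV3-1, the one shown holds the start of all 3 of its GENCODE transcripts. It was chosen for that and because the gene differed between treatments in both lines. It lies at chr7:65006638-65006937 on the minus strand (GRCh38.p14, RefSeq; the files give no coordinates), from 250 bases before to 50 bases after the annotated start, and is written 5′ to 3′ with each CpG, the dinucleotide that carries DNA methylation, in capitals.
ERV3-1 promoter: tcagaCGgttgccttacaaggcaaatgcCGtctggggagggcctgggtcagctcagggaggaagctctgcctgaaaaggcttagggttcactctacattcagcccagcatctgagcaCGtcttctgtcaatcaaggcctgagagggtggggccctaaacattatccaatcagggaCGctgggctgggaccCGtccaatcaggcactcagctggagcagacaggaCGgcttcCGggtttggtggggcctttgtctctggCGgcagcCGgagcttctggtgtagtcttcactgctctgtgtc
The window holds 9 CpGs (motif CG, which reads the same on both strands). Of 35116 RefSeq promoters of 300 bases, 58.4% hold as many or more, 96.0% hold at least 1, and the median is 14. RNA reads do not show whether these CpGs were methylated. A further RefSeq promoter window of ERV3-1, at chr7:64999393-64999692, holds 4 CpGs, and 0 of the 3 transcripts start in it. Whether either window lies in an LTR was not tested.

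Most reads fell on 1 transcript, ENST00000394323, with 1228, 1199 and 1212 in DAC-treated and 199, 339 and 286 in untreated ELF-153, and 177, 194 and 183 in DAC-treated and 2.097, 0 and 1.58 in untreated UCSD-AML1. ERVW-1, which encodes syncytin-1 in a HERV17 copy, had 4.74, 7.85 and 3.91 in DAC-treated ELF-153 and 0 in every other library. With a floor of 3 reads set on the untreated ELF-153 group its fold change there was 5.52, a value without an interval. Its counts were too low for the test. ERVFRD-1, which encodes syncytin-2, and ERVMER34-1, ERVV-1 and ERVV-2, other envelope genes, had at most 2.24 scaled reads in any library and were not tested.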

How the data were processed

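Total RNA of 12 libraries (3 technical replicates in each of 4 groups) was sequenced after ribosomal RNA depletion, per the labels' protocols. The submitters' processing notes list hg19 as the build and STAR, TopHat2, HTSeq, FastQC and DESeq2 as tools. Which of them made the repeat table, and how it treats strand and reads that match several copies, was not given in the sources used here. The values deposited by the authors are signal, reads per repeat family or transcript divided by 1 size factor per library. Every non-zero value was a whole multiple of its library's step within 0.01, which recovered the reads. These reads were then divided by each library's gene-table size factor.

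The test was limma 3.58.1 in R 4.3.3 (means of 4 groups over 12 libraries, eBayes with trend and robust) on log2(scaled reads + 1), for families that reached 10 in 3 or more libraries, leaving out 7SK, adjusted by Benjamini-Hochberg over 1063 families and called at 0.05. Fold changes on this scale understate the change of low families. Gene sums were tested likewise; 181859 of 204940 transcripts (88.7%) matched a GENCODE release 29 gene (GRCh38), used for names. Replicates differed by more than counting noise (chi-square per degree of freedom 1.6 to 60.4). Named families were HERV17, HERV3, HERVE, HERVS71, Harlequin, MER34, MER41 and HERVIP10FH, and up to 6 of the largest called changes in each direction of each comparison. LTR rows and host genes were named beside their family, and HERVK11-int was added after its values were seen. HERV16-int and MamGyp-int were chosen by the untreated comparison and their DAC values are given beside it. The members and lists were chosen with earlier results of these data known. Alternatives were the deposited scaling, TMM, pseudocounts 0.5 and 8, no filter, a mean of at least 50, edgeR 4.0.16, DESeq2 1.42.0, a replicate block, the 6 libraries of a line and leaving out libraries. The fit was tested on simulated data. A gene on the list for the cell type check is not reported here. Tables and figures used Python 3.11.15, pandas 2.3.3 and matplotlib 3.10.9. The 144 h table was not used, since it holds no repeat families.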

Additional observations from a re-analysis of the deposited data

Results flagged for a closer look

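The DAC effect of 11 internal sequences differed between ELF-153 and UCSD-AML1 in the interaction test, and each value here is the log2 change in ELF-153 minus that in UCSD-AML1. More negative in ELF-153 were HERVK14-int at −3.83, HERVS71-int at −3.32, HERVFH19-int at −1.901, HUERS-P3-int at −1.69, MER52-int at −1.68, HERV4_I-int at −1.32 and Harlequin-int at −1.09. More positive were HERVE_a-int at 3.24, LOR1-int at 2.14, MER65-int at 1.96 and HERVI-int at 1.62. Among them HERVS71-int, HERVE_a-int and LOR1-int passed the test with opposite signs in the 2 lines.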

How the results depend on the processing

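With the deposited repeat scaling, TMM in limma, edgeR with TMM and DESeq2, in that order, ELF-153 had 16, 16, 16 and 16 rises and 6, 6, 6 and 6 falls, and UCSD-AML1 had 5, 5, 5 and 6 falls. The line difference had 8, 8, 8 and 8 more positive and 13, 12, 14 and 13 more negative members, and untreated ELF-153 had 29, 30 and 27 higher members under TMM, edgeR with TMM and DESeq2. The following changes, none past the test as reported, turned negative in the same order of settings. HERVFH19-int in ELF-153 had −0.44, −0.42, −0.41 and −0.47. HERVIP10FH-int in ELF-153 had −0.34, −0.31, −0.29 and −0.35. HERVIP10FH-int in UCSD-AML1 had −0.24, −0.22, −0.17 and −0.21. HERVK14-int in ELF-153 had −0.22, −0.19, −0.18 and −0.24. MER34-int in UCSD-AML1 had −0.17, −0.15, −0.087 and −0.14. MER41-int in ELF-153 had −0.089, −0.058, −0.054 and −0.11. MER41-int in UCSD-AML1 had −0.17, −0.15, −0.12 and −0.16. MER65-int in UCSD-AML1 had −0.35, −0.33, −0.28 and −0.33. edgeR with the gene-table size factors gave counts within 1.5 times of the reported ones, as did the pseudocounts 0.5 and 8, no filter and a mean of at least 50. A fit of the 6 libraries of a line takes the spread from that line alone. The 6 ELF-153 libraries gave 13 rises and 0 falls, with 18.1% of members rising against 5.68% of all families. The 6 UCSD-AML1 libraries gave 44 rises and 3 falls, with 61.1% of members rising against 48% of all families. How much of these shifts comes from the spread was not tested.

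Leaving out 1 library at a time gave 18 to 47 rises and 1 to 3 falls in ELF-153, 4 to 8 more negative line differences and 8 to 14 members higher in untreated ELF-153. The 47 came without ELF-153 untreated replicate 2, the 3 without ELF-153 untreated replicate 1, and the 8 higher members without UCSD-AML1 untreated replicate 3. No counts over all families are given for these fits. HERVFH19-int in ELF-153 was −0.22 without DAC replicate 2 and −0.16 without untreated replicate 1, and at most 0.35. MER65-int in UCSD-AML1 was −0.14 to 0.22, the lowest without DAC replicate 3. Without both libraries that stood apart, a choice made after seeing the data, ELF-153 had 17 rises and 3 falls, UCSD-AML1 4 falls, the line difference 15 more negative members, and HERVFH19-int −0.45 in ELF-153.

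Shared replicate numbers did not meet the criterion for pairing, a correlation of deviations over 0.1 in every pair. Same-numbered DAC and untreated libraries correlated at −0.10 to 0.41 in ELF-153 and −0.13 to 0.05 in UCSD-AML1. Between lines, same-numbered DAC libraries correlated at −0.54 to 0.37, and same-numbered untreated libraries at 0.05 to 0.19, each above the different-numbered untreated pairs (−0.13 to 0.01), a hint from the data and not the design. With the replicate block the counts were 27 rises and 1 fall in ELF-153, 38 and 2 in UCSD-AML1, 4 and 5 for the line difference and 14 and 24 for the untreated lines; the line differences of Harlequin-int and HERVFH19-int missed the threshold there (adjusted p = 0.057 and 0.0574), at unchanged sizes. With 3 libraries a group, the 95% interval of a low-count family such as MER34-int in ELF-153 ran from −0.12 to 1.95.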
